A study of Mus musculus with 6 samples.

Results

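The integrin genes described here are *Itga1*, *Itga3*, *Itga4*, *Itga5*, *Itga6*, *Itga7*, *Itga9*, *Itgav*, *Itgb1* and *Itgb1bp2*. They were chosen by symbol, and all 10 were found among the 54525 gene rows of the deposited count tables. RNA-seq was performed on wild type C2C12 cells, an established mouse myoblast line that received no treatment besides differentiation, with 3 cultures of myoblasts before differentiation (day 0, D0) and 3 cultures of myotubes after 5 days of differentiation (D5). The cell type field of the sample labels reads myoblasts in all 6 samples, and the groups were therefore taken from the sample titles. According to the study's methods, myoblasts were grown with fetal bovine serum and differentiated with a lower share of horse serum, so the day and the medium cannot be told apart. The sources used here do not say whether the 3 cultures of a group were set up independently, and p-values measure only the spread between them. All 6 samples come from 1 cell line, and no time point between D0 and D5 was analysed here.

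Integrins are receptors of the cell surface made of one alpha and one beta chain, which bind the extracellular matrix outside the cell and connect to actin through talin, kindlin and the ILK complex inside it. The alpha chain largely sets the ligand. The α5 chain binds fibronectin, αv binds vitronectin and other proteins with an RGD sequence, α3, α6 and α7 bind laminins, α1 binds collagens, and α4 and α9 bind VCAM1 among others. All 8 alpha chains considered here can pair with the β1 chain, encoded by *Itgb1*, and α7β1 is known as the main laminin-binding integrin of differentiated skeletal muscle. *Itgb1bp2* encodes melusin, a muscle protein that binds the cytoplasmic tail of β1. It is not an integrin subunit, and it is described beside the subunits for that reason.

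The libraries held 36555048 to 40895840 counts on genes at D0 and 25449759 to 25811300 at D5, and ERCC spike-ins (synthetic RNAs added to each sample) took 0.720% to 2.09% of all counts. Levels are given as CPM, counts per 1000000 counts after TMM scaling of the libraries, and the days were tested against each other with the quasi-likelihood method of edgeR, with Benjamini-Hochberg adjustment over the 16290 genes that passed a filter on low counts. Of the 10 markers of skeletal muscle cells examined, all were detected, 8 rose and 2 (*Myod1* and *Myf5*) fell. Past an adjusted p of 0.05, 42.2% of all genes tested rose and 40.8% fell. *Mymx*, among those that rose, passed the low-count filter only through D5. The summed level of the 10 markers was 8119 to 8611 CPM at D0 and 36747 to 38399 CPM at D5. Markers of endothelial cells summed to 3.31 to 3.59 CPM at D0 and 0.517 to 0.884 CPM at D5, with at most 7 counts of *Pecam1* in any library. Markers of leukocytes summed to 3.16 to 3.39 CPM and 1.93 to 2.64 CPM, nearly all of it *Cd68*, with at most 1 count of *Ptprc*. Markers of Schwann and nerve cells summed to 1.79 to 2.04 CPM and 1.00 to 1.22 CPM, and *Sox10* had at most 1 count. Markers of adipocytes did not exceed 0.0405 CPM in sum, and those of epithelial cells reached 2.25 CPM at D5, mainly *Cdh1*. Markers of fibroblasts and fibro-adipogenic cells summed to 1.15 to 1.497 CPM at D0 and 52.9 to 64.2 CPM at D5, and 4 of the 5 (*Pdgfra*, *Dpt*, *Pi16* and *Lum*) rose while *Tcf21* was at 0 in every library. Of these 4, *Dpt*, *Pi16* and *Lum* passed the low-count filter only through D5, and 42.2% of all genes tested rose. The part of these fibroblast markers in the results below was not tested.

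*Itga5* and *Itgb1* fell between myoblasts and myotubes, and *Itga7*, *Itga4*, *Itga1*, *Itga9* and *Itgb1bp2* rose. *Itga3* and *Itgav* also passed the test upward, by small amounts whose sign turned in unscaled counts and with the spike-ins. *Itga6* was not distinguished from no change. In total 7 of the 10 genes were called higher at D5 and 2 lower past an edgeR adjusted p of 0.05, against 42.2% of all genes tested that were called higher and 40.8% that were called lower. The groups did not overlap for these 7 and 2 genes, where 42.2% of all genes tested had every D5 library above every D0 library and 41.1% had every D5 library below. Taking both directions together, 82.9% of the genes tested were called and 83.3% did not overlap, so that 9 of 10 is near the background. All 10 genes passed the filter on low counts, but *Itga1* and *Itga9* did so only through their D5 libraries. These genes could hardly be called lower, so their calls add little to the count of 7. In these bulk samples, fewer cells of a type and less RNA per cell cannot be told apart.

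**Figure D1:**
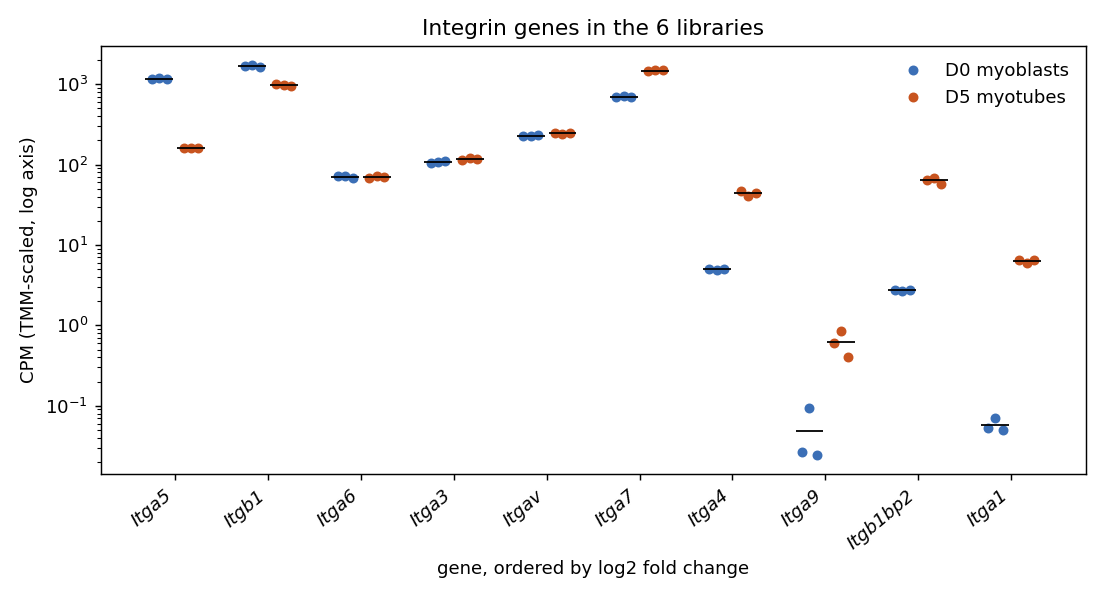
CPM of the 10 integrin genes in each of the 6 libraries, on a log axis. Points are single libraries (blue D0, orange D5), lines are group means and the genes run from the largest fall to the largest rise. The 3 libraries of each group lie close together except for *Itga9*, which had at most 4 counts in any D0 library.

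The α5 chain is the fibronectin-binding partner of β1. *Itga5* (ENSMUSG00000000555.8, chromosome 15 of GRCm38 from 103344286 to 103366763) was counted 42964, 49596 and 46350 times in myoblasts and 4030, 4007 and 4009 times in myotubes. After scaling, this was 1146, 1179 and 1150 CPM at D0 and 160, 162 and 161 CPM at D5. Every D5 library lay far below every D0 library, and the spread within a group was small. The group means were 1158 ± 17.8 CPM in myoblasts and 161 ± 1.10 CPM in myotubes (SD, n = 3 each), so 13.9% remained. The log2 fold change was -2.84 with a standard error of 0.034 (edgeR adjusted p = 7.8e-34). *Itga5* stood at position 15711 of the 16290 genes tested when these were ordered from the largest rise to the largest fall.

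*Itgb1* (ENSMUSG00000025809.15, chromosome 8 of GRCm38 from 128685654 to 128733200), the common beta chain, was the gene with the most counts of the 10 at D0. It had 1680, 1707 and 1651 CPM in the D0 libraries and 1001, 985 and 945 CPM in the D5 libraries. The groups did not overlap, and the means were 1679 ± 28.1 CPM in myoblasts and 977 ± 28.6 CPM in myotubes (SD, n = 3 each). The log2 fold change was -0.78 with a standard error of 0.033 (edgeR adjusted p = 1.4e-19), so that *Itgb1* kept 58.2% of its D0 level.

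*Itga7* (ENSMUSG00000025348.9, chromosome 10 of GRCm38 from 128933818 to 128958282) encodes the laminin-binding chain typical of muscle fibres. It was already abundant in myoblasts, with 685, 711 and 687 CPM, and had 1440, 1483 and 1483 CPM in the D5 libraries. All D5 libraries were above all D0 libraries. The means were 694 ± 14.5 CPM in myoblasts and 1469 ± 25.03 CPM in myotubes (SD, n = 3 each), a 2.12-fold rise (1.08 on the log2 scale with standard error 0.032, edgeR adjusted p = 1.8e-23). With scaling to the ERCC spike-ins the log2 fold change was 0.52, the standard error grew to 0.51 and the call was lost (edgeR adjusted p = 0.45).

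The other laminin-binding chains and αv moved little. *Itga3* (chromosome 11 from 95044474 to 95076801) had 105, 106 and 111 CPM at D0 and 112, 119 and 118 CPM at D5. The ranges lay next to each other without overlap, and the mean was 0.12 higher on the log2 scale (standard error 0.036, edgeR adjusted p = 0.00378). *Itgav* (chromosome 2 from 83724397 to 83806916), the RGD-binding chain with several beta partners, had 225, 224 and 234 CPM at D0 and 250, 241 and 250 CPM at D5, 0.12 higher on the log2 scale (standard error 0.033, edgeR adjusted p = 0.0016). Both calls were lost with total counts alone and without a filter on low counts. In unscaled counts both genes were called lower, at -0.57 and -0.56 (edgeR adjusted p = 1.8e-16 and 3.0e-17). With spike-in scaling both log2 fold changes were negative as well (-0.45 and -0.46, neither called). The call of *Itga3* was also lost without D0 replicate 1, at 0.087. *Itga6* (chromosome 2 from 71745616 to 71858416) had 71.1, 71.5 and 67.5 CPM at D0 and 68.1, 71.5 and 69.3 CPM at D5. The groups overlapped, the log2 fold change was -0.0079 (edgeR adjusted p = 0.855), and its 95% confidence interval ran from -0.087 to 0.071. It was called lower with total counts alone (-0.093) and in unscaled counts (-0.69).

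*Itga4* (ENSMUSG00000027009.18, chromosome 2 of GRCm38 from 79255426 to 79333123), whose product binds VCAM1 and an alternatively spliced part of fibronectin, was low in myoblasts. It had 190, 208 and 201 counts at D0 and 1189, 995 and 1099 counts at D5. Scaled, these were 5.07, 4.94 and 4.99 CPM and 47.3, 40.3 and 44.1 CPM. The D5 libraries were all several times above the D0 libraries, with a log2 fold change of 3.14 (8.79-fold, standard error 0.068, edgeR adjusted p = 3.2e-27). Of its exonic length, 8.04% is shared with *Cerkl* on the opposite strand. The strand setting of the counting is not stated, so reads from there cannot be assigned.

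*Itga1* (ENSMUSG00000042284.10, chromosome 13 of GRCm38 from 114953096 to 115101964), the collagen-binding chain, had 2, 3 and 2 counts at D0, at or under the 3 counts that were taken as the limit of detection. At D5 it had 164, 146 and 162 counts, or 6.52, 5.92 and 6.51 CPM. The ratio of the summed and scaled counts was 108, with a 95% exact interval for counting error from 52.1 to 271 (edgeR adjusted p = 4.6e-21). *Itga9* (ENSMUSG00000039115.13, chromosome 9 from 118606690 to 118901003), a relative of α4 by ligand, stayed close to the limit of detection, with 1, 4 and 1 counts at D0 and 15, 21 and 10 counts at D5. It was higher in each D5 library than in each D0 library, and the ratio was 12.3, with an interval from 5.24 to 35.2 (edgeR adjusted p = 1.95e-07). This ratio rests on few reads, and the fitted log2 fold change of *Itga9* was 3.52 with all libraries and 4.37 without D0 replicate 2. *Itga1* and *Itga9* passed the low-count filter only through D5 and could hardly be called lower, so their calls and lack of overlap add little.

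*Itgb1bp2* (ENSMUSG00000031312.5, chromosome X of GRCm38 from 101449088 to 101453541) was counted 104, 111 and 111 times in myoblasts and 1612, 1683 and 1442 times in myotubes. This corresponded to 2.77, 2.64 and 2.75 CPM at D0 and 64.1, 68.2 and 57.9 CPM at D5. Melusin transcripts were thus scarce in every myoblast library and 23.3-fold higher in myotubes (log2 fold change 4.54, standard error 0.073, edgeR adjusted p = 1.6e-30). While *Itgb1* fell, the gene for its binding protein rose, and both directions were kept in DESeq2 and under all scalings tried. No exonic base of *Itgb1bp2* is shared with another gene of the annotation.

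Of the 10 genes none shared longer sequence with another, and 0% of the 50-base stretches in the transcripts of any of them occurred in another. Exonic overlap with other genes was 5.90% for *Itgav*, with *Gm13684* on the opposite strand, and 3.68% for *Itga1*, with *Gm49395* on the same strand. It was 0.111% for *Itga7*, and none was found for *Itga3*, *Itga5*, *Itga6*, *Itga9* and *Itgb1*.

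RefSeq promoter windows (GRCm38.p6) were at hand for 7 of the 10 genes, *Itga3* with 2 windows. None was at hand for *Itga6*, *Itga7* and *Itgb1bp2*. The 250 bases before the start site are shown for the pair of genes that fell (*Itga5* and *Itgb1*) and for the pair with the largest rise among genes with a window at the annotated gene start (*Itga1* and *Itga4*), to let the sequences ahead of genes with opposite changes be compared. Capitals mark CANNTG, the E-box read by myogenic bHLH factors such as MyoD and myogenin.
*Itga5*, chr15:103366792-103367041, minus strand: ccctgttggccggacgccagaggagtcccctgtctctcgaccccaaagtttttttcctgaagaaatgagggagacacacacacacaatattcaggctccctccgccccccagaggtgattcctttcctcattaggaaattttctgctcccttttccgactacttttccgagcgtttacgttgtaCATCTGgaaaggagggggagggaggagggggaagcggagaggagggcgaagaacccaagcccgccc
*Itgb1*, chr8:128685404-128685653, plus strand: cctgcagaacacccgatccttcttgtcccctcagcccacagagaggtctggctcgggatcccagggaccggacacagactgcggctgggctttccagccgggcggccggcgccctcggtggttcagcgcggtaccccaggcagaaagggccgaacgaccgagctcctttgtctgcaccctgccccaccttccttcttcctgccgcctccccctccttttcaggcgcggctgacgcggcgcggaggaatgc
*Itga4*, chr2:79255176-79255425, plus strand: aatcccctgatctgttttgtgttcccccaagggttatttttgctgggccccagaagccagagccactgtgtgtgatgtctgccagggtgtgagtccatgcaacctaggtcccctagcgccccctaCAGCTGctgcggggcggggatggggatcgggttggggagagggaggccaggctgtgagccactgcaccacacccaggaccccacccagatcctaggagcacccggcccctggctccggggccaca
*Itga1*, chr13:115101965-115102214, minus strand: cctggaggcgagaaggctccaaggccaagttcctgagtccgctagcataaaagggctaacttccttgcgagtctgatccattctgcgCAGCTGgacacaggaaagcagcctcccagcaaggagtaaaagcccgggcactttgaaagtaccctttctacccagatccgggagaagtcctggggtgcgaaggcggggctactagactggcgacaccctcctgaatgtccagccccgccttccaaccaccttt
*Itga1*, *Itga4* and *Itga5* each had 1 match to CANNTG, and *Itgb1* had 0. The motif was searched on both strands, on which it reads alike, and 66.2% of the 32851 RefSeq windows cut to the same length hold it. The form CAGCTG, a special case of CANNTG, was found in *Itga1* and *Itga4* and in 13.0% of all windows. Among the other genes called higher for which a window was at hand, *Itgav* had 0 matches to CANNTG, and each *Itga3* window had 1 and none to CAGCTG. The window of *Itga9* had 3 matches to CANNTG, of which 1 was CAGCTG. In *Itga5* the match is CATCTG in the direction of the gene. The GC box GGGCGG, searched on both strands, occurred 2 times in *Itga5*, 1 time each in *Itgb1* and *Itga4* and 0 times in *Itga1*, and 32.7% of all windows hold it. The AP-1 motif TGANTCA, held by 6.75% of all windows, was in none of the windows of the 7 genes. The window of *Itga9* starts 105002 bases from the annotated gene start and is not shown. These matches describe the letters only and say nothing about binding in these cells.

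Because longer transcripts give more reads, levels of different genes were compared in TPM, transcripts per 1000000, which divides counts by exonic length. At D0 the order from high to low was *Itgb1* with 1424 TPM, *Itga5* with 813, *Itga7* with 297, *Itgav* with 73.3, *Itga3* with 65.1, *Itga6* with 26.8, *Itgb1bp2* with 5.24 and *Itga4* with 1.24 TPM. *Itga9* and *Itga1*, with 0.0220 and 0.0108 TPM, overlapped between libraries and had no order. At D5 the order was *Itgb1* with 743 TPM, *Itga7* with 563, *Itgb1bp2* with 109, *Itga5* with 101.4, *Itgav* with 71.3, *Itga3* with 63.3, *Itga6* with 23.9, *Itga4* with 9.76, *Itga1* with 1.05 and *Itga9* with 0.248 TPM. *Itgb1bp2* and *Itga5* overlapped there, at 99.3 to 116 and 100.5 to 103 TPM. With the length of the longest transcript in place of all exonic bases, *Itga7* (906 TPM) stood above *Itgb1* (635 TPM) at D5, so the order of these 2 genes depends on the length used.

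Within the transcripts of the 8 alpha subunits, *Itga5* and *Itga7* changed places. *Itga5* made up 63.7%, 63.8% and 63.5% of the summed alpha-subunit TPM in the D0 libraries and 12.3%, 12.2% and 12.04% in the D5 libraries. *Itga7* made up 23.2%, 23.5% and 23.1% at D0 and 67.2%, 67.7% and 67.6% at D5. The libraries of a group lay close together in both shares, and the groups were far apart. The mean share of *Itga5* decreased from 63.7% ± 0.155 to 12.2% ± 0.119, and that of *Itga7* increased from 23.3% ± 0.174 to 67.5% ± 0.255 (SD, n = 3 each). An exact permutation test of 3 libraries against 3 gave a two-sided p of 0.1 for either share, the smallest this design allows. Shares within a library do not depend on the scaling of the libraries. They depend on gene length, and with the longest transcript *Itga5* went from 51.8% to 7.58% and *Itga7* from 34.1% to 75.8%.

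**Figure D2:**
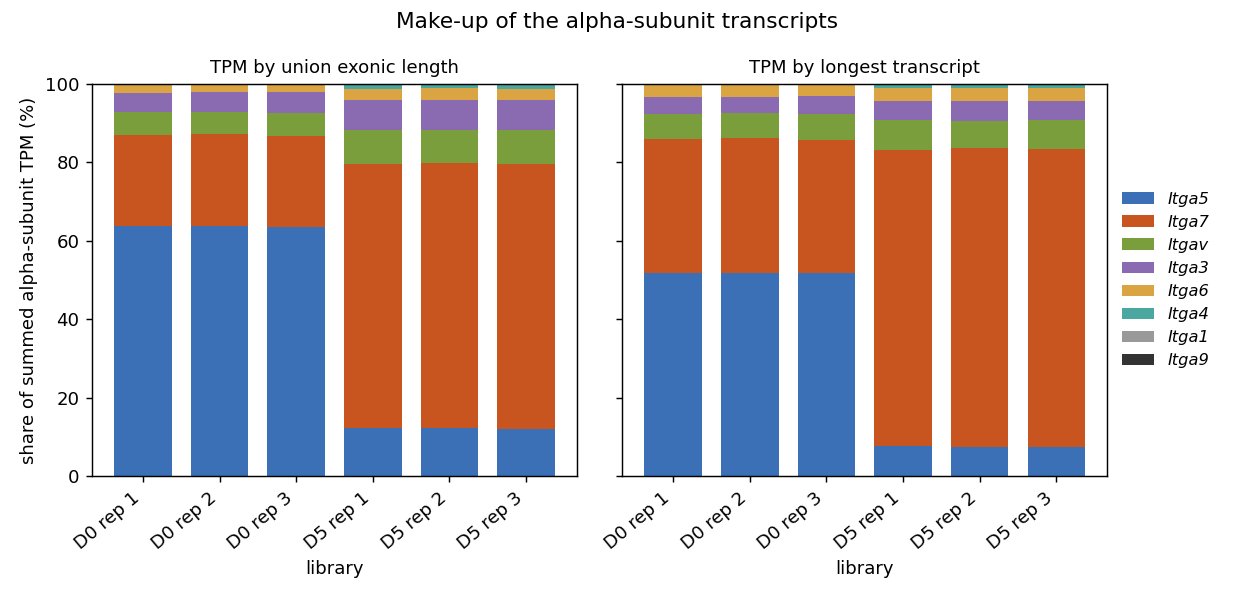
Share of each alpha subunit in the summed TPM of the 8 alpha subunits, in percent, for each library. The left panel uses the exonic length of all transcripts and the right panel the longest transcript, and in both *Itga5* (blue) is the largest part at D0 and *Itga7* (orange) at D5.

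The smaller shares also shifted without overlap between groups. *Itgav* went from 5.74% ± 0.190 to 8.55% ± 0.255 of the summed alpha-subunit TPM, *Itga3* from 5.10% ± 0.172 to 7.59% ± 0.148 and *Itga6* from 2.10% ± 0.0625 to 2.87% ± 0.0488 (SD, n = 3 each). With the longest transcript these shifts were smaller, from 6.37% to 7.26% for *Itgav*, from 4.37% to 4.97% for *Itga3* and from 3.21% to 3.35% for *Itga6*. None of the 3 genes had a higher mean TPM at D5 (73.3 and 71.3 for *Itgav*, 65.1 and 63.3 for *Itga3*, both overlapping between groups, and 26.8 and 23.9 for *Itga6*, without overlap). The small upward calls of *Itgav* and *Itga3* in TMM-scaled counts were thus not seen in mean TPM. The sum over the 8 alpha subunits, the denominator of these shares, was 1276 ± 31.6 TPM at D0 and 834 ± 6.997 TPM at D5 (SD, n = 3 each). *Itga4* had 0.0970% at D0 and 1.17% at D5, *Itga1* had 0.126% at D5, and *Itga9* had 0.0298% at D5. The exact permutation p was 0.1 for each of these shares, and no share was tested in any other way. The ratio of the summed alpha-subunit TPM to *Itgb1* TPM was 0.885, 0.895 and 0.908 at D0 and 1.08, 1.12 and 1.17 at D5, higher at D5 without overlap (exact permutation p = 0.1). With the longest transcript the ratio went from 1.15 ± 0.0137 to 1.88 ± 0.0776 (SD, n = 3 each).

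The scaling of the libraries changed the calls of *Itga3*, *Itgav* and *Itga6*, which were near no change, and with the spike-ins also that of *Itga7*. Without any scaling of counts, the median log2 fold change over all genes was -0.68, and it was -0.58 when the ERCC spike-ins set the library sizes, against 0.0022 with TMM factors. Of all calls, 49.2% were lower with TMM factors, 76.6% in unscaled counts and 67.4% with the spike-ins. Of the 16290 genes tested, 3353 were called higher and 10953 lower in unscaled counts, and 1813 higher and 3747 lower with the spike-ins. Counts of calls under these scalings are to be read beside these numbers. Relative to the median of all genes, *Itga5* was at -2.85 with TMM factors, -2.85 unscaled and -2.83 with the spike-ins, *Itgb1* was at -0.78, -0.78 and -0.76, and *Itga7* was at 1.08, 1.08 and 1.10. *Itga3* and *Itgav* were both at 0.12 with TMM factors and at 0.13 and 0.12 with the spike-ins on this relative scale. The calls of *Itga5* and *Itgb1* as lower and of *Itga4* and *Itgb1bp2* as higher were made under all 5 other scalings. So were those of *Itga1* and *Itga9* as higher, but these genes passed the low-count filter only through D5 and could hardly be called lower under any scaling.

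**Figure D3:**
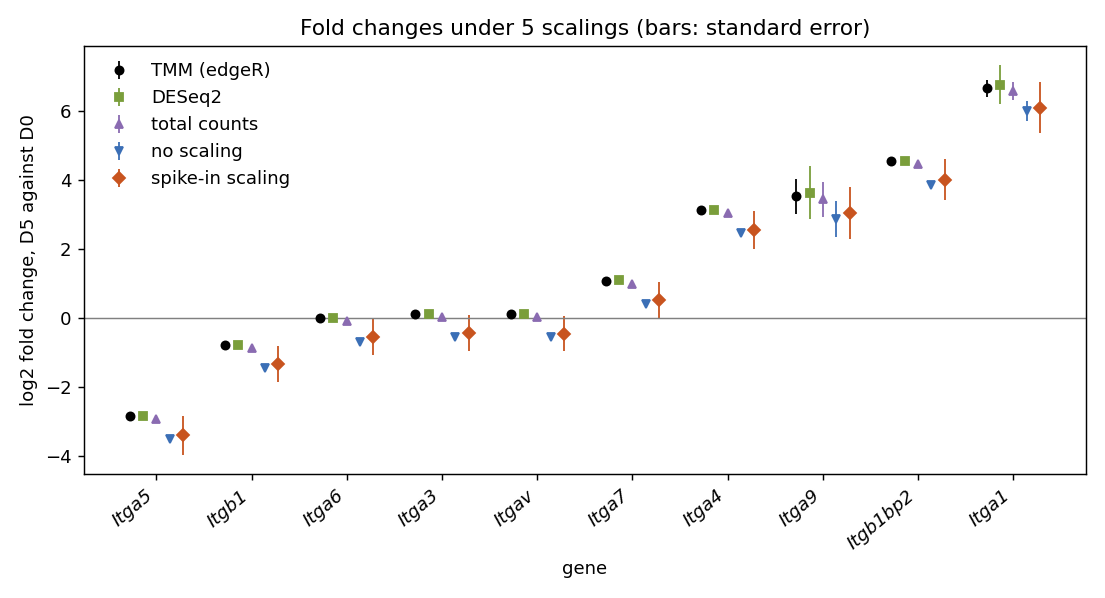
Log2 fold change of each integrin gene, D5 against D0, with its standard error, under TMM factors, DESeq2, total counts, no scaling and scaling to the ERCC spike-ins. Without scaling and with the spike-ins all points shift downward together, so that *Itga3* and *Itgav* lie below 0 while *Itga5*, *Itgb1*, *Itga4*, *Itga9*, *Itgb1bp2* and *Itga1* stay on their side.

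Of 17 other integrin subunits, 13 were tested. Of these, 11 were called upward and 2 downward, where 42.2% of all genes tested were called higher and 40.8% lower. *Itga8*, *Itga11*, *Itgae*, *Itgal*, *Itgb2* and *Itgb4*, 6 of the 11, passed the low-count filter only through their D5 libraries and *Itgb7* only through its D0 libraries, so these could hardly be called the other way, and the count is no result about the list. DESeq2 called 11 and 1, where it called 6563 higher and 6202 lower of all 16290 genes tested. Spike-in scaling called 8 and 1, where it called 1813 higher and 3747 lower of the same genes. *Itgb5*, a beta chain that pairs with αv, had 60.8, 67.2 and 59.4 CPM at D0 and 255, 294 and 292 CPM at D5, a log2 fold change of 2.17 (edgeR adjusted p = 3.8e-27). *Itgb3*, another of the several beta partners of αv, had 20.2, 19.2 and 22.2 CPM at D0 and 16.8, 19.5 and 18.3 CPM at D5. These groups overlapped, and the log2 fold change of -0.17 passed in edgeR (adjusted p = 0.015) but neither in DESeq2 (adjusted p = 0.0562) nor with spike-in scaling (edgeR adjusted p = 0.283). The collagen-binding chains *Itga10* and *Itga11* (7, 2 and 5 counts at D0) increased from 0.739 ± 0.124 to 14.7 ± 1.06 CPM and from 0.119 ± 0.0697 to 8.74 ± 0.0587 CPM (SD, n = 3 each). Whether the rise of the fibroblast markers given above has a part in these or the other rises was not tested.

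Of 7 tested genes that turn integrins on, 5 were lower at D5 and 2 were higher (median log2 fold change -0.45), beside 40.8% and 42.2% of all genes tested. With spike-in scaling 3 were lower and 1 higher, where 3747 of all 16290 genes tested were lower and 1813 higher. *Tln1* and *Tln2*, the talins that bind beta tails, had log2 fold changes of -0.26 and -0.70, *Fermt2* (kindlin-2) of -0.45, *Fermt3*, which passed the low-count filter only through D0, of -1.69 and *Rap1b* of -0.83. *Rap1a* and *Apbb1ip* (RIAM, which links Rap1 to talin) were higher, at 0.68 and 2.53. Of these, the sign of *Rap1a* turned in unscaled counts. Of the genes listed here under integrin inhibition, an activity that was not measured, *Flna*, a filamin gene, fell to 747 ± 14.4 CPM from 4764 ± 78.7 CPM (SD, n = 3 each). *Flnc*, *Sharpin*, *Dok1* and *Krit1* were higher, with log2 fold changes from 0.16 to 0.30 that turned negative unscaled and with the spike-ins. In all, 4 of the 7 tested genes of this list were higher and 2 lower (median log2 fold change 0.16), but 0 were higher unscaled and with the spike-ins, where the medians were -0.52 and -0.39. Of all 16290 genes tested, 3353 were higher unscaled and 1813 with the spike-ins. *Itgb1bp1* (ICAP-1, which binds the β1 tail) was not called, at 28.0 ± 0.915 CPM before and 29.6 ± 0.783 CPM after differentiation (SD, n = 3 each).

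In the complex of ILK, PINCH and parvin, which joins beta tails to actin, 5 of 6 tested genes were lower and 1 was higher (median -0.80 on the log2 scale), against 40.8% lower and 42.2% higher over all genes tested. The count was 4 lower and 0 higher with spike-in scaling. *Ilk* was at -1.15 on the log2 scale, *Rsu1* at -1.16, *Parvb* at -0.84, *Parva* at -0.76 and *Lims1* at -0.66, and *Lims2* at 0.64, which turned negative in unscaled counts. Of 18 genes of focal adhesion signalling and actin linkage, 13 were lower, 4 were higher and 1 was not called, with a median log2 fold change of -0.43, and the shares over all genes tested were 40.8% lower and 42.2% higher. The largest falls were those of *Tgfb1i1* (Hic-5, -2.71), *Zyx* (zyxin, -2.30) and *Actn1* (a nonmuscle alpha-actinin, -1.90), and the largest rises those of *Tns3* (1.65), *Fyn* (0.24) and *Crkl* (0.16). The last 2 turned negative unscaled and with the spike-ins. With the spike-ins, 0 of the 18 genes were higher and 8 were lower. Of all 16290 genes tested, 1813 were higher and 3747 lower with the spike-ins.

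Ligand genes moved in both directions. *Fn1*, the fibronectin gene, went down from 13771 ± 108 CPM in myoblasts to 7752 ± 129 CPM in myotubes (SD, n = 3 each, edgeR adjusted p = 8.9e-20), and it is named here after its values were seen, since it encodes the ligand of α5β1. *Vcam1*, a ligand of α4 and α9, rose from 3.36 ± 0.183 to 155 ± 12.5 CPM, and *Npnt* (nephronectin) and *Emilin1*, the former a ligand of α8 and the latter of α4 and α9, had log2 fold changes of 3.67 and 3.99. *Tnc* (tenascin-C), *Ctgf* (listed so for *Ccn2*) and *Postn* (periostin) fell most in this list, at -5.96, -4.94 and -4.08. In all, 7 of 13 tested ligand genes outside the laminins and collagens were higher and 6 were lower (median log2 fold change 2.19), near the 42.2% and 40.8% of all genes tested. Among 10 tested laminin chains 6 were higher and 4 lower (median 0.25), of which *Lama3*, *Lama4* and *Lamc3* passed the low-count filter only through D5. DESeq2 called 5 and 3 of the laminin chains, unscaled counts gave 3 higher and 6 lower (median -0.43) and spike-in scaling 3 and 1 (median -0.30), so the balance and the sign of the median turned with the scaling. Of all 16290 genes tested, 6563 were higher and 6202 lower in DESeq2, 3353 and 10953 unscaled, and 1813 and 3747 with the spike-ins. *Lama4* and *Lamb3* had log2 fold changes of 7.26 and 0.63 and *Lama5*, *Lamb1* and *Lamc1* of -0.85, -0.39 and -0.26. *Lama4* had 3, 1 and 1 counts at D0, so that its fitted value is no bound, and *Lamb3* turned negative in unscaled counts.

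**Figure D4:**
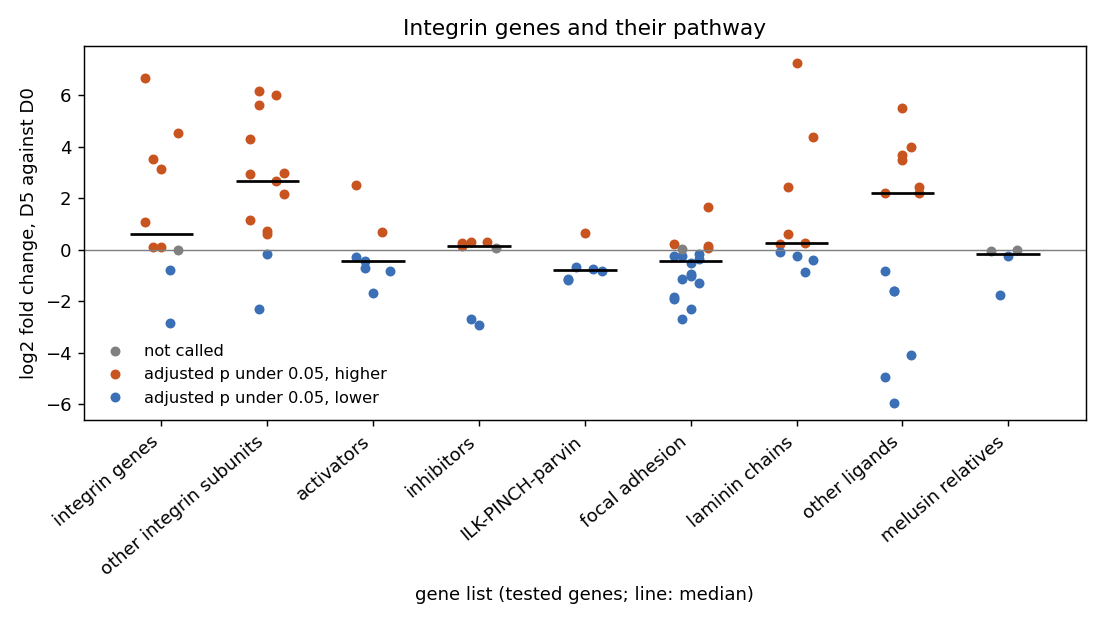
Log2 fold change, D5 against D0, of the tested genes in each list, with orange points called higher, blue points called lower and grey points not called, and a black line at the median of each list. The integrin genes span from -2.84 to 6.67, and the ILK-PINCH-parvin genes lie below 0 except for *Lims2*.

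Melusin is related to *Chordc1* by its CHORD domains, and both proteins bind HSP90. *Chordc1* was at 85.7 ± 1.66 CPM in myoblasts and 82.9 ± 1.73 CPM in myotubes (SD, n = 3 each) and was not called, nor was the co-chaperone gene *Sugt1*. *Hsp90aa1* and *Hsp90ab1* were lower, with log2 fold changes of -1.76 and -0.24, and the median of these 4 genes was -0.15. All 4 were called lower with total counts and unscaled, where 7254 and 10953 of all 16290 genes tested were. With the spike-ins only *Hsp90aa1* was called, and *Hsp90ab1* was not (edgeR adjusted p = 0.199). The genes whose profile over the 6 libraries was nearest to that of *Itgb1bp2*, by Euclidean distance of log2(CPM + 0.5) values centred on the D0 mean, were *Cd34* (distance 0.145, log2 fold change 4.53), *Myom1* (0.160 and 4.34) and *Rhbdl2* (0.192 and 6.04). Among those nearest to *Itga7* were *Mpc2* (0.0582 and 1.09) and *Ybx3* (0.0667 and 1.07). At a D0 level of 0.209 CPM the distance of *Rhbdl2* depends on the added 0.5.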

How the data were processed

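Per the labels, the authors aligned reads to GRCm38 (mm10) and counted them on genes with featureCounts, and they deposited raw counts, 1 library per culture. The labels name Tophat2 and the paper HISAT2 as the aligner. The submitters' processing notes also name DESeq2 1.6.3. The strand setting is not given in the sources used here. Each file ends with an unnamed total of its column, which was dropped, and the 92 spike-in rows (0.720% to 2.09% of counts) entered neither library sizes nor tests.

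From the counts, TMM factors, CPM and quasi-likelihood tests came from edgeR 4.0.16 (R 4.3.3) after filterByExpr, with an adjusted p threshold of 0.05, and the fit was tested on simulated data. Standard errors were derived from each gene's log2 fold change and F statistic. Positions, lengths and overlaps came from GENCODE M21 (GRCm38), which held 99.9% of the identifiers. TPM used the union of exons. Intervals of ratios are exact binomial ones at 95% and, like the limit of 3 counts, cover counting error only. Replicate pairs differed by more than sampling noise (chi-square per degree of freedom 2.28 to 3.71).

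The genes, lists and tests were chosen with earlier results of these data known. Named were the 10 genes, all tested genes of lists of up to 8, and in longer lists the 3 called genes that rose most and the 3 that fell most, among those averaging 100 counts or more in 1 group, and the 3 genes nearest in profile to *Itga7* and *Itgb1bp2*. Some genes that this rule names are not reported here. Alternatives were DESeq2 1.42.0, upper-quartile factors, total counts, no scaling, spike-in scaling, other filters on low counts, each library left out, a replicate block and another gene length.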

Additional observations from a re-analysis of the deposited data

How the results depend on the processing

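The count of integrin genes lower at D5 was 5 in unscaled counts in place of 2, and the count of higher genes was 4 with spike-in scaling in place of 7. Of all 16290 genes tested, 10953 were lower unscaled in place of 6641, and 1813 were higher with the spike-ins in place of 6869. Unscaled, *Itga3* was at -0.57 and *Itgav* at -0.56, and with the spike-ins at -0.45 and -0.46. Spike-ins took 0.720% to 2.09% of counts within D5 alone. *Itga7* lost its call with the spike-ins (0.52). With each library left out in turn, 6 to 7 genes were higher, 2 were lower and 9 to 10 did not overlap, and *Itga6* lay between -0.046 and 0.011. Over all genes, these fits gave 6723 to 6936 higher and 6513 to 6663 lower, of 16257 to 17169 tested. Lack of overlap over all genes was not counted in these fits, and it is easier to reach with 2 libraries in a group. At least 10 counts in every library left 8 genes, without *Itga1* and *Itga9*, 5 higher and 2 lower. No filter gave 5 higher and total counts 5 higher and 3 lower. Over all genes, at least 10 counts gave 5742 higher and 5752 lower of 13713. Without a filter 7637 of 29266 were higher, and total counts gave 6281 higher and 7254 lower of 16290. With the longest transcript, the difference in share, D5 minus D0, was 0.61 percentage points for *Itga3*, 0.83 for *Itga4*, -44.3 for *Itga5*, 0.14 for *Itga6*, 41.6 for *Itga7*, 0.017 for *Itga9* and 0.89 for *Itgav*, and that of the ratio to *Itgb1* was 0.73. Same-numbered libraries did not deviate together in every pair (1 of 3 correlations over 0.1, and 5 of 6 libraries correlated best with their own number), and with the replicate block 7 genes were higher and 2 lower, with no call changed. Over all genes the replicate block gave 6894 higher and 6664 lower of 16290. Depth limits *Itga1* and *Itga9* at D0.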
